A study of Mus musculus with 2 samples.

Results

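The cells described here are the remaining non-mitotic mesenchyme of the mouse pancreas at embryonic day 13.5, meaning the mesenchymal cells left after lumican-rich, Isl1-positive and mitotic cells were set apart. They were chosen by measured UMI counts, so the genes of the rule describe the choice and support nothing. A cell needed at least 500 genes, at least 1000 UMIs (unique molecular identifiers, 1 per captured transcript molecule) and at most 10% mitochondrial UMIs. It also needed at least 3 UMIs of the fibrillar collagens Col3a1 and Col1a2 together. Fewer than 2 UMIs were allowed of each of 3 pairs: the epithelial Epcam and Cdh1, the mesothelial Upk3b and Lrrn4, and the endothelial Pecam1 and Cdh5. Finally, Lum had to be under 3 UMIs, Isl1 at 0, and the mitotic genes Ube2c, Cenpf, Top2a, Ccnb1 and Hmmr under 8 UMIs in sum. This gave 1580 cells of the control library and 1150 cells of the knockout-labelled library, 2730 of the 6883 cells that passed the cell filter and 2730 of 4506 gated mesenchymal cells.

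The study compared 1 control and 1 Dpy30 mutant (Dpy30∆P) pancreas of C57BL/6 embryos, dissociated with trypsin, sorted for live cells by 7-AAD exclusion and profiled by droplet single-cell RNA sequencing from the 3′ end. Dpy30 encodes a core subunit of the COMPASS complexes, which methylate lysine 4 of histone H3. The labels give neither the deleted part of the gene nor the driver of the deletion nor the cell types in which it acts, so whether mesenchymal cells carry the deletion is not known from them. With 1 embryo and 1 library in each group, differences have no replicate check, and no statistical test was possible. Levels are in CPM, a gene's UMIs divided by all UMIs of the member cells of a library and scaled to the usual fixed total. Intervals in parentheses are 95% intervals (exact Poisson for CPM, Clopper-Pearson for shares, exact conditional for ratios of a gene) and cover counting error alone. The interval of the ratio of shares is a large-sample approximation on the log scale. Log2 ratios are of CPM + 5, knockout-labelled over control, and the pseudocount understates the difference of low genes.

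Pancreatic mesenchyme surrounds the branching epithelium, secretes growth factors such as Fgf10 that keep epithelial progenitors dividing, and lays down the matrix on which the epithelium grows. It forms from the splanchnic mesoderm that also gives the spleen anlage and the stroma of stomach and duodenum, and holds future fibroblasts, pericytes and smooth muscle. Notch, BMP, PDGF and FGF signals act within it, and Hes1, a basic helix-loop-helix repressor, is a common target of Notch.

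Of 5 genes proposed as markers of these cells from the same data, 4 stood above the other gated mesenchyme in both libraries and Prrx1 did not. Tgfbi, a secreted matrix protein that binds integrins, stood at 600.2 CPM (control) and 525 CPM (knockout-labelled), log2 differences of 0.34 and 0.40 from the other mesenchyme. Epha4, an ephrin receptor, stood at 411 and 487 CPM (0.22 and 0.38 above). Tshz2, a zinc finger transcription factor, stood at 1492 and 1539 CPM (0.30 above in both), and Hes1 at 1624 and 776 CPM (0.29 and 0.25 above). Prrx1, a homeobox gene of limb and visceral mesenchyme, stood at 183 and 153 CPM and had no one direction (-0.09 and 0.07). The markers grade across the mesenchyme and do not set these cells off. In the mitotic mesenchyme of the control library Tgfbi stood at 599 CPM and Hes1 at 1643 CPM. With each cell thinned to 3000 UMIs, Tshz2 was found in 97.7% of control cells and 97.4% of knockout-labelled cells of the population, and Tgfbi in 77.8% and 70.6% (89.7% and 87.6% unthinned). Gated epithelium (at least 2 UMIs of Epcam and Cdh1, under 3 of the collagen pair), which should lack Tgfbi, had it in 1.78% and 1.99% of thinned cells (median depth before thinning 12698.5 and 14680 UMIs, against 5797 and 6936.5 in the population).

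**Figure D1:**
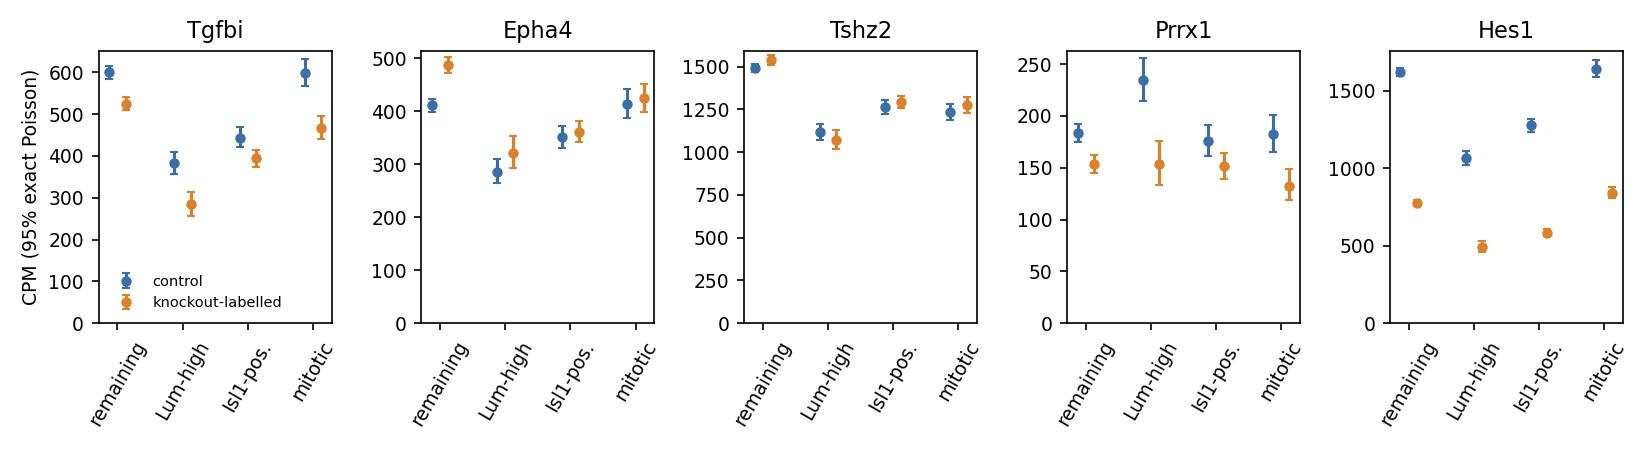
CPM of the 5 marker genes (vertical axes, from 0) in the remaining non-mitotic mesenchyme and the Lum-high, Isl1-positive and mitotic mesenchyme; points are the 1 control and 1 knockout-labelled library, bars are 95% exact Poisson intervals. Hes1 is lower in the knockout-labelled library in each of the 4 parts, from 1624 to 776 CPM in the remaining non-mitotic cells.

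Cells near the thresholds were common. Within the population, Lum was at 2 UMIs in 123 control and 55 knockout-labelled cells, and just outside it 187 and 86 mesenchymal cells had Lum at 3 or 4. Isl1 was at a single UMI in 291 control and 291 knockout-labelled cells just outside. The mitotic sum was 6 or 7 in 25 and 16 cells inside, and 8 or 9 in 11 and 20 cells outside. The collagen sum was between 3 and 5 in 32.4% of control and 36.2% of knockout-labelled members.

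The member cells of the control library held 9606410 UMIs, and those of the knockout-labelled library 8133402. Median depth was 5797 against 6936.5 UMIs and 1994 against 2218.5 genes per cell, so the knockout-labelled cells were deeper. Across all barcodes 22 sequences occurred in both libraries, and 4 of these were in the population in both. Dpy30 went against the label, at 88.5 CPM (82.6 to 94.6) in control cells and 103 CPM (96.2 to 110.3) in knockout-labelled cells of the population. Since a 3′ tag outside the deleted part is no check of a deletion, the genotype rests on the sample title. Sex also differed between the embryos, with 2 UMIs of Xist, a transcript of the inactive X, in control members and 19704 in knockout-labelled members. Genotype, sex, embryo and library cannot be told apart in any value below.

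The population made up a slightly smaller share of gated mesenchyme in the knockout-labelled library. It was 1580 of 2524 control cells (62.6%, 60.7 to 64.5) and 1150 of 1982 knockout-labelled cells (58.02%, 55.8 to 60.2), a ratio of 0.927 (0.883 to 0.973). Isl1-positive cells made up 16.4% and 22.8%, Lum-high cells 11.8% and 7.82%, and mitotic cells 9.15% and 11.4%, so the smaller share came with a larger Isl1-positive and a smaller Lum-high share. The ratio turned with the gates: it was 1.008 when Isl1 was not used, and 1.007 when Lum had to be at 0. A single Isl1 UMI placed a cell outside, as in 291 of 414 control and 291 of 452 knockout-labelled Isl1-positive cells. Gated mesenchyme was deeper in the knockout-labelled library (median 7403.5 against 6121 UMIs). With the deeper library thinned before gating, the shares of the population were 62.6% and 60.2%. The Isl1-positive and Lum-high shares were not worked out at that depth.

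**Figure D2:**
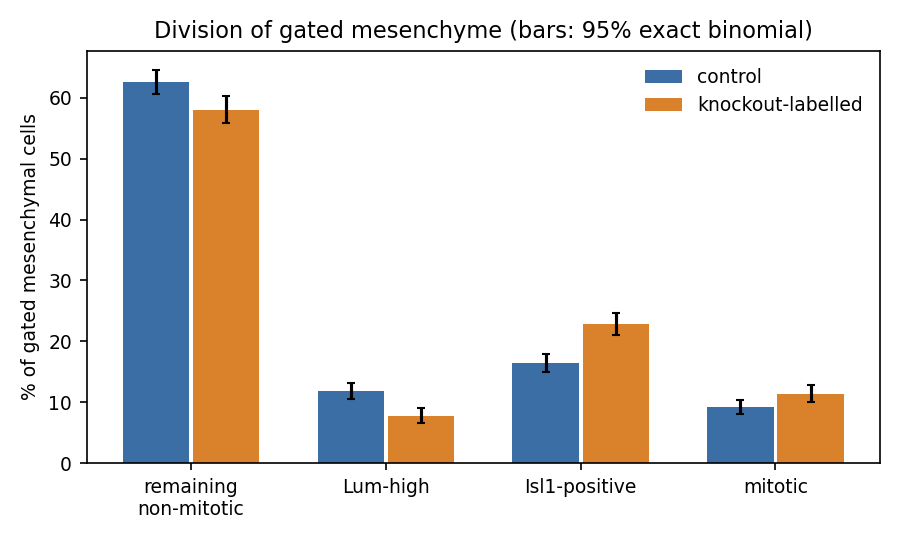
Share of gated mesenchymal cells (vertical axis, %) in each of 4 parts for the control (2524 cells) and knockout-labelled (1982 cells) library, with 95% exact binomial intervals. The remaining non-mitotic cells are 62.6% and 58.02%, and the Isl1-positive cells differ in the other direction.

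Beside the genes of the rule, the naming rule took the 10 genes that stood highest in these cells over the other gated mesenchyme, by the smaller difference of the 2 libraries. These values come from the cells that the rule sorted, so they are a description. Col9a2, a chain of cartilage collagen IX, stood at 76.4 CPM in the control and 71.6 CPM in the knockout-labelled population, log2 differences of 0.59 and 0.66. Aspn, a small leucine-rich proteoglycan, differed by 0.68 and 0.57, but stood at nearly the same level in the Lum-high mesenchyme (62.9 and 26.2 CPM, against 63.7 and 25.3 CPM here). Fbln5, an elastic fibre protein, differed by 0.59 and 0.48. Gap43, a growth cone protein, stood at 401 and 444 CPM (0.51 and 0.47). The others were Syt6, Kazald1, Sh3bp5, Tmem200a, Tac2 (which encodes a tachykinin) and Kctd12. At the other end stood Hist1h2ap, Cks2, H2afx, Arl6ip1, Hmgb2 and Tubb4b, genes of dividing cells, which the gate on mitotic genes removed. Cks2 was at 68.9 CPM in the population and 439.8 CPM in the other mesenchyme of the control library.

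Most genes stood at nearly the same level in both libraries. The 50 CPM minimum, met in either library, left 2596 genes, of which 18 were at least 1.5-fold higher in the knockout-labelled library (0.693%) and 36 at least 1.5-fold lower (1.39%), and the median log2 ratio was -0.0044. Among 11895 genes with at least 20 UMIs over both libraries, 61 were higher (0.513%) and 151 lower (1.27%), with a median of -0.019. Of those, 45.2% had a log2 ratio above 0. The 18 higher genes included Xist and Tsix, and the 36 lower ones Ddx3y, which is on the Y chromosome, and 4 haemoglobin genes. Lum was also counted among the 36, but the rule capped it in every member, so its value describes the choice.

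**Figure D3:**
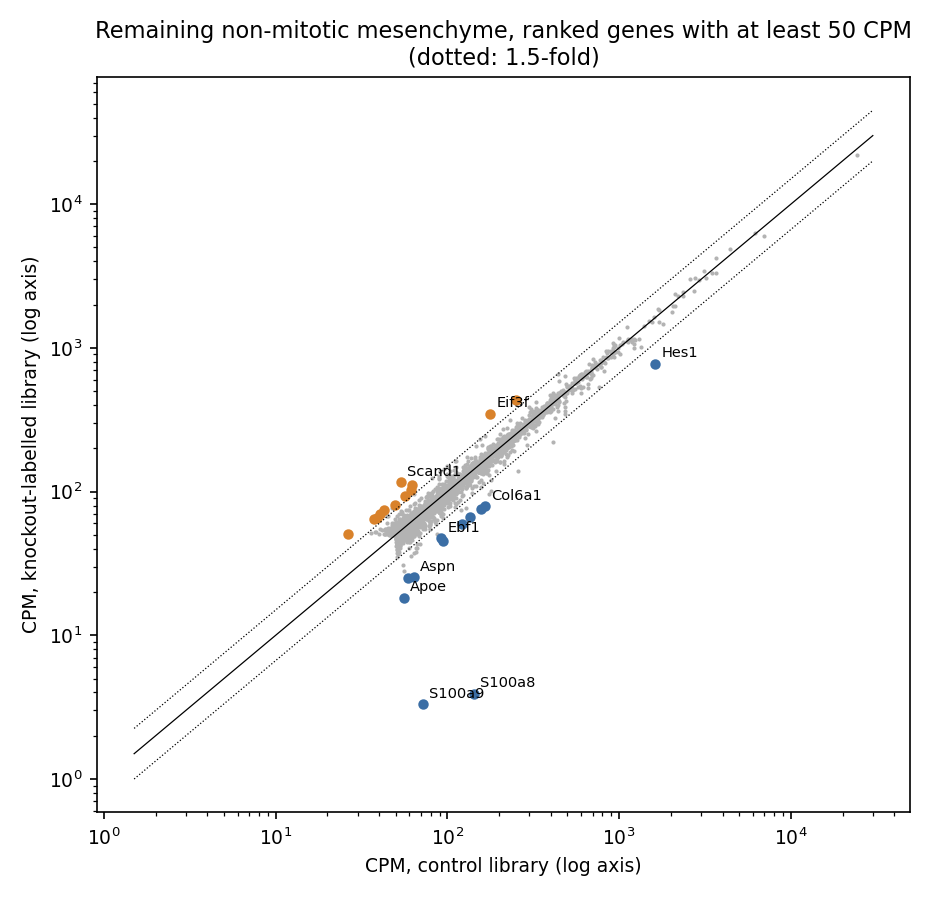
CPM in the control (horizontal) and knockout-labelled (vertical) library, both on log axes, for the genes of at least 50 CPM that the naming rule ranks in the remaining non-mitotic mesenchyme; the solid line is equality, dotted lines are 1.5-fold, blue and orange points are the 12 lowest and 12 highest ratios. Hes1, at 1624 against 776 CPM, lies below the lower dotted line, and S100a8 and S100a9 lie farthest from it.

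Hes1 was among the 12 lowest ratios, with 15603 UMIs in the control population and 6309 in the knockout-labelled one. It stood at 1624 CPM (1599 to 1650) and 776 CPM (757 to 795), a ratio of 0.478 (0.464 to 0.492) and a log2 ratio of -1.06. Hes1 lies at chr16:30064384-30067796 on the plus strand (GRCm38). The difference was spread over cells: at 3000 UMIs per cell the median was 4 UMIs in control and 2 in knockout-labelled cells, and the highest 10% of cells began at 11 and 6 UMIs. Cells with no Hes1 UMI at that depth made up 10.3% and 23.03%. No single cell carried it, since the highest cell held 0.263% and 0.507% of the UMIs. In the Lum-high, Isl1-positive and mitotic mesenchyme Hes1 had log2 ratios of -1.10, -1.12 and -0.96. In gated epithelium of the same libraries, thinned to the same depth, Hes1 averaged 1.12 and 1.04 UMIs per cell, against 5.07 and 2.43 in the population.

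**Figure D4:**
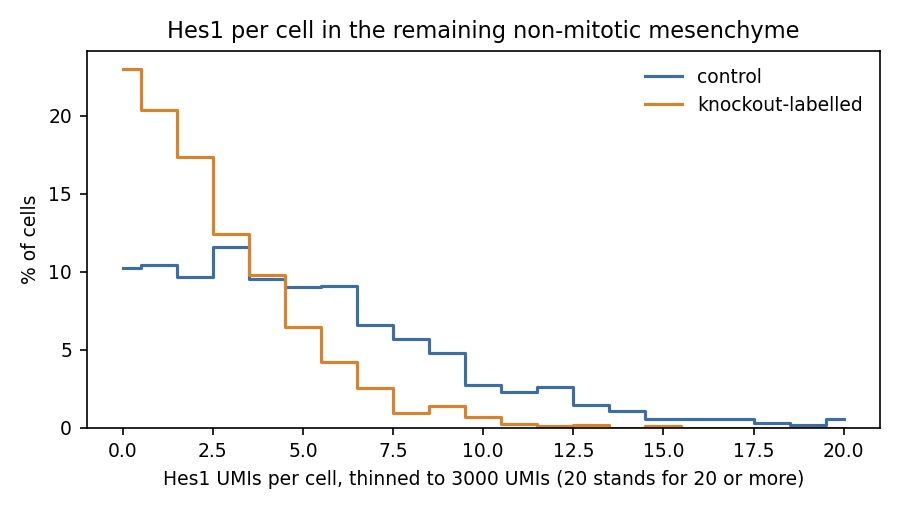
Share of cells (vertical axis, %) by Hes1 UMIs per cell (horizontal axis) after thinning each cell to 3000 UMIs, for 1558 control and 1129 knockout-labelled cells of the remaining non-mitotic mesenchyme. Cells with 0 Hes1 UMIs are 10.3% of control and 23.03% of knockout-labelled cells, and the control line extends farther to the right.

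The rest of the Notch pathway had fewer UMIs, and most of it differed less. Of 18 listed genes 12 were measured (at least 20 UMIs), 2 were higher and 10 lower, with a median log2 ratio of -0.06. Past 1.5-fold were 0 upward and 3 downward (Hes1 among them), where 0.513% and 1.27% of all measured genes were. Hey1, another Notch target repressor, had 84 UMIs in control and 10 in knockout-labelled cells (8.74 and 1.23 CPM, ratio 0.141, 0.0651 to 0.272), and was within 1.5-fold under 1 of 18 alternatives, a pseudocount of 20. The receptor Notch1 stood at 21.1 and 12.4 CPM (log2 ratio -0.59) and was within 1.5-fold under 8 of 18 alternative settings. The receptor Notch2 was at 94.8 and 91.5 CPM, and the ligand Jag1 at 54.2 and 53.98 CPM. Rbpj, the DNA-binding partner of the cleaved receptor, was at 35.5 and 40.5 CPM. The named receptors and ligand other than Notch1 stood within 1.5-fold, and Hes1 and Hey1 did not.

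The Id genes, helix-loop-helix proteins that lack a DNA-binding domain and are classical BMP targets, were also lower in the population. Id3 stood at 410 CPM (397 to 423) and 223 CPM (213 to 233), a log2 ratio of -0.86. Id1 stood at 768 and 538 CPM (-0.51), and Id2 at 158 and 108 CPM (-0.53), both within 1.5-fold. At 3000 UMIs per cell, Id3 was found in 59.1% of control members and 40.8% of the others. In Lum-high mesenchyme Id3 was nearly level, at 60.5% and 61.9%. It was lower in Isl1-positive (60.1% and 49.0%) and mitotic mesenchyme (55.8% and 38.2%). In gated epithelium the order for Id3 was the other way, at 35.7% and 45.1%. Among 27 measured of 34 BMP and TGF-beta genes, 15 were higher and 12 lower, and the median was 0.0044. Past 1.5-fold were 0 upward and 1 downward, where 0.513% and 1.27% of all measured genes were. The receptors Bmpr1a (31.1 and 31.5 CPM) and Tgfbr1 (31.9 and 31.97 CPM) and the inhibitory Smad7 (8.02 and 10.5 CPM) were level or higher. The ligand Bmp4 had 21 and 25 UMIs.

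Collagen genes leaned lower in the knockout-labelled population, and also in the Lum-high, Isl1-positive and mitotic mesenchyme (list medians -0.23, -0.22 and -0.25). Every part needed at least 3 UMIs of Col3a1 and Col1a2, though gated mesenchyme was deeper in the knockout-labelled library (median 7403.5 against 6121 UMIs). Deeper cells can pass that cutoff with a smaller collagen fraction. The median collagen sum of the population was 7 UMIs in both libraries. Over the alternatives its list median lay between -0.27 and -0.15. The part of the gate in this lean was not tested. Col6a1 and Col6a2 encode the chains of microfibrillar collagen VI that lie next to each other on chromosome 10. Col6a1 stood at 166 CPM (158 to 174) and 79.3 CPM (73.3 to 85.7), a log2 ratio of -1.02, and Col6a2 at 120.4 and 73.9 CPM (-0.67). Col6a3, the gene of the third chain on another chromosome, stood at 46.2 and 42.5 CPM (-0.11). Of 16 measured collagens outside the rule, 14 were lower and 2 higher, where 45.2% of all measured genes were higher. The median log2 ratio was -0.24 against -0.019 over all measured genes. Col6a1 and Col6a2 were the ones past 1.5-fold, where 1.27% of all measured genes were that much lower. Col1a1, a chain of collagen I, stood at 658 and 560 CPM (-0.23), and the basement membrane chains Col4a1 and Col4a2 at 44.2 against 34.4 CPM and 30.9 against 25.1 CPM. Col11a1 was at 13.6 and 15.7 CPM.

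Glycoproteins and proteoglycans of the matrix showed the same lean with more exceptions. Of 39 measured, 28 were lower and 11 higher, 3 and 0 past 1.5-fold (1.27% and 0.513% of all measured genes), with a median of -0.13. Dcn, decorin, which binds collagen fibrils, stood at 176 and 96.4 CPM (-0.83). Ogn, osteoglycin, stood at 29.6 and 14.4 CPM (-0.83), and the adaptor Matn2 at 18.5 and 9.1 CPM (-0.74). Each of Dcn, Ogn and Col6a2 was within 1.5-fold under 1 of 18 alternatives. Sparc, a collagen-binding glycoprotein, was at 1218 and 996 CPM (-0.29). Higher members included the glypicans Gpc3 (703 and 832 CPM, 0.24) and Gpc6 (93.4 and 113 CPM, 0.26) and Npnt (9.89 and 15.5 CPM, 0.46), while the microfibril genes Mfap2 (760.3 and 762 CPM) and Fbln1 (144 and 145 CPM) were level. Enzymes of matrix assembly and remodelling had 15 of 19 members lower and a median of -0.19, with 0 past 1.5-fold. Aspn, the proteoglycan that ranked high over the other mesenchyme, stood at 63.7 and 25.3 CPM (-1.18) and was found in 15.02% and 6.64% of thinned cells.

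**Figure D5:**
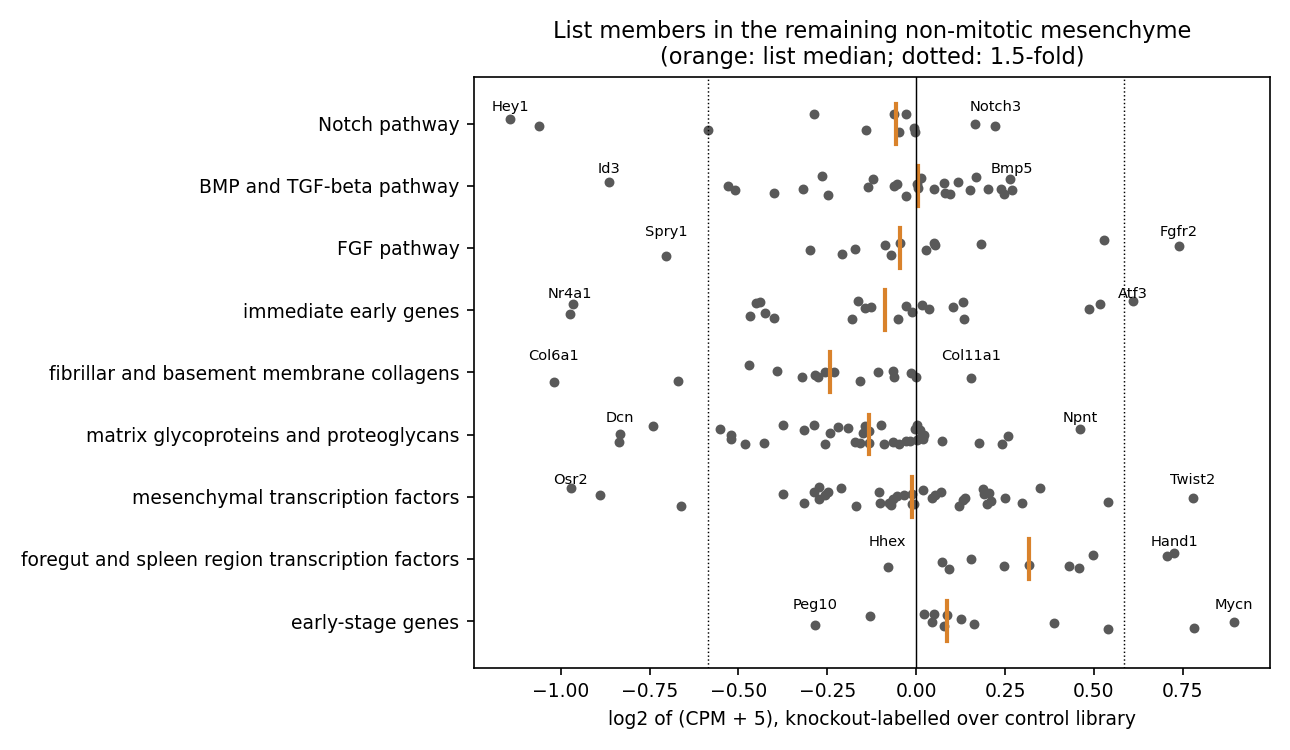
Log2 ratio of CPM + 5, knockout-labelled over control (horizontal axis), for measured members of 9 gene lists (rows) in the remaining non-mitotic mesenchyme; each point is a gene, the orange bar is the list median, dotted lines are 1.5-fold and the lowest and highest members are named. Collagens (median -0.24) lie mostly left of 0 and foregut and spleen region transcription factors (median 0.32) mostly right of it.

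Mesenchymal transcription factors were level as a list, with a few members apart. Of 39 measured, 17 were higher and 22 lower, and 1 and 3 were past 1.5-fold (0.513% and 1.27% of all measured genes), with a median of -0.01. Osr2, an odd-skipped zinc finger gene, stood at 136 CPM (129 to 144) and 67.01 CPM (61.5 to 72.9), a log2 ratio of -0.97, and was found in 30.6% and 16.7% of thinned cells. Its paralogue Osr1 stood at 152 and 116 CPM (-0.37). Ebf1 stood at 91.7 and 47.2 CPM (-0.89) and Creb5 at 45.3 and 26.8 CPM (-0.66). Twist2, a basic helix-loop-helix gene of fibroblast precursors, was higher at 19.8 and 37.5 CPM (0.78), and within 1.5-fold under 1 of 18 alternatives. Meis2 (492 and 490.1 CPM) and Nfib (444 and 423 CPM), both broad regulators of mesenchyme, were level.

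Transcription factors that pattern the foregut and spleen mesenchyme leaned higher, here and in the Lum-high, Isl1-positive and mitotic mesenchyme (medians 0.36, 0.20 and 0.42 there). Of 22 listed, 11 were measured, 10 higher and 1 lower, with a median of 0.32. That median depended on the processing, and lay between 0.086 and 0.439 over the alternatives. Past 1.5-fold upward were 2, against 0.513% of all measured genes. Nkx2-3, a homeobox gene needed for spleen and gut mesenchyme, stood at 16.8 CPM (14.3 to 19.6) and 30.5 CPM (26.8 to 34.5), a log2 ratio of 0.71. Hand1 had 26 and 63 UMIs (2.71 and 7.75 CPM, 0.73), and each of Nkx2-3 and Hand1 was within 1.5-fold under 2 of 18 alternatives. Nkx2-5 stood at 5.1 and 8.61 CPM, Gata6 at 7.81 and 10.9 CPM, Hlx at 2.39 and 5.16 CPM and Hand2 at 104 and 125 CPM. Barx1, a stomach mesenchyme gene (16.9 and 18.3 CPM), Tlx1, a spleen gene (6.45 and 7.75 CPM), and Wt1 (17.2 and 18.3 CPM) were nearly level. Among 15 measured Hox genes, 9 were higher and 6 lower, the median was 0.03, and Hoxb2 alone was past 1.5-fold.

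Genes that fall as tissues mature leaned higher, in part. Hmga2, an architectural chromatin protein of fetal tissue, stood at 252 CPM (242 to 262) and 437 CPM (423 to 452), a log2 ratio of 0.78, and was found in 46.1% and 62.6% of thinned cells. In gated epithelium it was found in 61.7% and 64.8%. Mycn had 37 and 93 UMIs (3.85 and 11.4 CPM, 0.89), and was within 1.5-fold under 2 of 18 alternatives. Sox11 stood at 111 and 164 CPM (0.54) and Stmn1, a microtubule regulator, at 446 and 585 CPM (0.39). Of 13 measured early-stage genes 11 were higher, with a median of 0.09, where 45.2% of all measured genes were higher with a median of -0.019. Past 1.5-fold were 2 upward (Hmga2 and Mycn) and 0 downward, against 0.513% and 1.27% of all measured genes. Igf2bp1 (68.8 and 62.5 CPM) and Peg10 (29.6 and 23.4 CPM) were lower. Nnat, an imprinted gene not on that list, stood at 439 and 658 CPM (0.58).

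Growth factor signalling lists had medians between -0.17 and 0.03, and single members differed more. Pdgfrb, the PDGF receptor of pericytes and fibroblasts, stood at 157 CPM (149 to 165) and 75.7 CPM (69.9 to 81.96), a ratio of 0.483 (0.439 to 0.531), and was found in 34.5% and 19.6% of thinned cells. Pdgfra, the other PDGF receptor, stood at 61.0 and 67.7 CPM (0.14). The vascular growth factor gene Figf stood at 15.5 and 6.89 CPM (-0.79), while Vegfa was at 20.3 and 22.9 CPM. In the FGF list, the feedback inhibitor Spry1 stood at 61.2 and 35.7 CPM (-0.70), within 1.5-fold under 1 of 18 alternatives, and the receptor Fgfr2 at 5.52 and 12.5 CPM (0.74). Another feedback gene of the same pathway, Dusp6, went the other way from Spry1, at 20.3 and 31.5 CPM (0.53). Fgf10 itself had 28 and 25 UMIs. Figf and Fgfr2 were not followed under the alternatives. The medians were 0.03 for PDGF, VEGF and IGF genes (23 measured), -0.05 for FGF (13), 0.02 for Wnt (23), -0.13 for Hedgehog (7, of which 6 were lower) and -0.17 for retinoic acid (14, of which 9 were lower).

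Mural and smooth muscle genes had 14 of 18 measured members lower, 2 of them past 1.5-fold (1.27% of all measured genes), and a median of -0.16. Acta2, smooth muscle actin, stood at 48.6 and 27.8 CPM (-0.71) and was within 1.5-fold under 3 of 18 alternatives. Des stood at 226 and 179 CPM (-0.33) and Tpm1 at 437 and 387 CPM (-0.17). The pericyte gene Rgs5 was higher, at 132 and 163 CPM (0.30). Cells with at least 3 UMIs of Acta2, Tagln, Myh11 and Cnn1 together were 3.10% of control and 2.35% of knockout-labelled members.

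Immediate early genes, which respond within minutes to stimuli and also to tissue dissociation, split in direction. Of 22 measured, 8 were higher and 14 lower, and 1 and 2 were past 1.5-fold (0.513% and 1.27% of all measured genes), with a median of -0.09. Nr4a1, a nuclear receptor, stood at 94.0 CPM (87.97 to 100.3) and 45.4 CPM (40.9 to 50.2), a log2 ratio of -0.97. Ier3 stood at 47.05 and 21.6 CPM (-0.97). Atf3, a stress-induced leucine zipper gene, stood at 30.1 and 48.6 CPM (0.61), within 1.5-fold under 5 of 18 alternatives. Fos (1340 and 1014 CPM, -0.40), Egr1 (481 and 346 CPM, -0.47), Junb (290 and 211 CPM, -0.45) and Socs3 (119 and 87.3 CPM, -0.42) were lower within 1.5-fold. Jun (853 and 917 CPM), Dusp1 (88.9 and 129 CPM) and Jund (30.7 and 45.0 CPM) were higher within it. Fosl2, Nfkbia, Phlda1 and Ppp1r15a, stimulus-responsive genes picked out after their values were seen, were also among the 36 genes at least 1.5-fold lower. Both embryos went through the same written protocol, and any difference in handling time was not tested.

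The 3 members past 1.5-fold are shown with the 250 bases before their RefSeq start (GRCm38.p6), 5′ to 3′ on the strand of the gene, because immediate early promoters are known for compact inducible elements close to the start. The letters searched were TGACG and its reverse complement CGTCA, the core of the cyclic AMP response element, printed in capitals. They were chosen after the values were seen. The windows shown, not the genes, lie at chr15:101266596-101266845 (Nr4a1, plus strand), chr17:35821463-35821712 (Ier3, plus strand) and chr1:191183334-191183583 (Atf3, minus strand).
Nr4a1: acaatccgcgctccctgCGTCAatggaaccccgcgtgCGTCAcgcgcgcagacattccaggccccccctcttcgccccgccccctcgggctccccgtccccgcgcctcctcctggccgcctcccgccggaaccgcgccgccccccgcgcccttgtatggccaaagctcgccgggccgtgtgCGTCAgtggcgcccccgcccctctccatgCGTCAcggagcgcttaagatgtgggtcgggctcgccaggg
Ier3: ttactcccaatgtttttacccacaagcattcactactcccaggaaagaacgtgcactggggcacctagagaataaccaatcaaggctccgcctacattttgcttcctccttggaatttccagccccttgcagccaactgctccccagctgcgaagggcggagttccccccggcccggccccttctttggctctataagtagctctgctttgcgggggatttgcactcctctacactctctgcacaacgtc
Atf3: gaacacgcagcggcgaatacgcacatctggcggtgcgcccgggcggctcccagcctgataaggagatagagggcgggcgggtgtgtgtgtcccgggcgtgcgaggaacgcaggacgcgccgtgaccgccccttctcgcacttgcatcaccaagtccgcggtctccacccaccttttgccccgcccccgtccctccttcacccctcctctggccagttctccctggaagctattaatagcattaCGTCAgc
The letters occur 4 times before Nr4a1, the nearest starting 40 bases before the start, once before Atf3 and 0 times before Ier3. Of 24 listed genes 18 matched a RefSeq promoter, and 9 of these 18 held the letters, as did 17.9% of 27025 promoters of all genes. Both the lower Nr4a1 and the higher Dusp1 had at least 3 copies, so the letters do not sort the members by direction. A match is a description of these letters in this window and nothing more.

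Of the 12 highest ratios, Scand1, a SCAN domain gene, stood at 53.5 CPM (48.98 to 58.3) and 116 CPM (109 to 124), a log2 ratio of 1.05. Eif3f, a subunit of translation initiation factor 3, stood at 178 and 349 CPM (0.95). Yipf4, a Golgi membrane protein, stood at 26.2 and 50.3 CPM (0.82), and Rbm17, a splicing factor, at 62.6 and 111 CPM (0.78). The other 7, beside Hmga2, were Dcun1d5, Ppp1cc, Abhd17a, Efhd2, Vapa, Polr2m and Rala, with log2 ratios between 0.65 and 0.73. Rala was within 1.5-fold under 2 of 18 alternatives, and Dcun1d5, Ppp1cc, Abhd17a, Vapa and Polr2m each under 1. Scand1 had log2 ratios of 1.52, 1.05 and 1.40 in the Lum-high, Isl1-positive and mitotic mesenchyme, and Eif3f had log2 ratios of 0.70, 0.92 and 0.79. All 4 parts come from the same 2 libraries, so these values are side by side and not independent.

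Several of the lowest ratios belonged to genes of other cell types, and for some of these 1 control cell held most of the UMIs. S100a8 and S100a9, the calprotectin subunits of neutrophils, stood at 142 against 3.93 CPM (-4.04) and 71.8 against 3.32 CPM (-3.21). A single control cell held 1126 of the 1368 S100a8 UMIs (82.3%), and the highest cell for S100a9 held 516 of 690. When 11 control and 3 knockout-labelled members with neural, immune or haemoglobin transcripts were left out, the log2 ratios were -1.75 and -1.46. Apoe, a lipid carrier of macrophages and other cells, stood at 55.8 and 18.3 CPM (-1.38), and at -0.86 without those cells. The 15 immune markers summed to 92.5 CPM in the control and 35.5 CPM in the knockout-labelled population, with 0 and 3 at 0, and 9 of 9 measured were lower. Haemoglobin and other erythroid markers (13) summed to 1291 and 398 CPM, with 1 and 4 at 0 and Slc4a1 at 0 in both. One control cell held 85.6% of the Hbb-bs UMIs, and 5 alternative gates turned the erythroid median from -1.72 to above 0.

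Markers of other classes were also uneven at low levels. Endocrine markers (15) summed to 42.2 and 11.7 CPM, with 0 and 7 at 0, and 1 control cell held 115 of 176 Chgb UMIs. Acinar tip enzymes (14) summed to 89.9 and 66.9 CPM, with 4 at 0 in each library (Pnlip, Rnase1, Try4 and Bhlha15). Epithelial markers (16) summed to 73.1 and 46.8 CPM with 0 at 0, endothelial markers (14) to 95.4 and 101 CPM with 3 and 4 at 0, and mesothelial markers (13) to 106 and 117 CPM with 1 at 0 in each. Neural markers (17) summed to 467 and 521 CPM, with 1 and 4 at 0. Stmn2, a neuronal microtubule gene, stood at 14.3 and 34.2 CPM (1.02), and cells with at least 2 UMIs of Stmn2 and Nrxn3 together were 2.22% and 4.17% of members. Without the cells carrying neural, immune or haemoglobin transcripts, the log2 ratio was -1.07 for Hes1, -1.20 for Aspn, -1.03 for Col6a1, -1.01 for Pdgfrb, -0.98 for Osr2 and Nr4a1, -0.87 for Id3 and 0.78 for Hmga2. Each lay within its counting interval over all members. The part of the endocrine, acinar, epithelial, endothelial and mesothelial transcripts in the gene differences was not tested.

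The remaining genes of the lowest 12 were Pycard, an inflammasome adaptor (122 and 59.4 CPM, -0.98), and Hist1h2ap, a replication-dependent histone (58.6 and 25.1 CPM, -1.08). Hist1h2ap has near-identical copies among which reads may be divided, and was within 1.5-fold under 1 of 18 alternatives. That was the gate on depth-matched counts (-0.52). In the Lum-high, Isl1-positive and mitotic mesenchyme Hist1h2ap had log2 ratios of 0.02, -0.73 and -0.81. The 36 genes at least 1.5-fold lower also included Spry1, Id3, Dcn and Col6a2, described above, and Alcam and Gadd45g. Alcam, an adhesion molecule, stood at 86.8 and 50.8 CPM (-0.72).

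Some genes differed between libraries less, more or otherwise here than in the Lum-high, Isl1-positive and mitotic mesenchyme, and no test of that difference was possible. Id2 had a log2 ratio of -0.53 in the population and 0.62, 0.00 and -0.40 in those parts. Igfbp5, an IGF-binding protein, had 0.19 in the population (63.7 and 73.6 CPM) and 0.71, 0.68 and 0.84 in the others. Gfod2, an oxidoreductase-like gene, had 0.26 against 0.36, 0.78 and 1.23. In the other direction, Usp3 was level in the population (60.4 and 60.7 CPM, 0.01) and at -0.47, -0.40 and -0.51 elsewhere, and Plin2, a lipid droplet protein, had 0.33 against -0.11, -0.11 and -0.02. The naming rule also took Chd1, Dpf2, Ccz1 and the non-coding Tbx3os1 in this direction. Other differences were shared by those parts. Col6a1, Pdgfrb, Osr2, Ebf1 and Nr4a1 were lower, and Hmga2 higher, in the population and in each of the others. The parts have different depths and cell numbers, from 155 to 1580 cells.

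Lists of general cell functions had 0 members past 1.5-fold in either direction, which says little about them, since 0.513% and 1.27% of all measured genes were. These were S phase genes (37 measured, median 0.03), G2 and mitosis genes outside the rule (38, 0.0029), COMPASS subunits (18, 0.05), Polycomb subunits (22, -0.0016), heat shock and unfolded protein genes (20, -0.01), glycolysis genes (20, 0.02), axon guidance genes (34, 0.0019) and imprinted growth genes (19, -0.10). At 3000 UMIs per cell, 72.6% of control and 73.6% of knockout-labelled members had at least 3 UMIs of S phase genes (89.7% and 93.04% unthinned). For the G2 and mitosis genes outside the rule the shares were 39.1% and 40.7%, against 100% and 99.1% in the mitotic mesenchyme that the rule set apart.

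Some genes differed between the cells of the population with and without Igfbp5. Igfbp5 was found in 171 of 1558 thinned control members and in 162 of 1129 from the knockout-labelled library. Cxcl12, the chemokine of stromal cells, was found in 58.5% (50.7 to 66.0) of control cells with Igfbp5 and 28.3% (25.9 to 30.7) of those without, and in 46.9% and 26.1% of knockout-labelled cells. Alcam was found in 39.2% and 14.1% of control cells with and without Igfbp5, and in 24.1% and 9.82% of knockout-labelled cells. Gap43 went the other way, at 34.5% with and 65.1% without Igfbp5 in the control library and 48.8% and 66.3% in the other. Hes1 was found in 77.2% of control cells with Igfbp5 and 91.3% of those without, and in 63.6% and 79.2% of knockout-labelled cells. For Dcn the shares were 43.9% and 30.5% in control cells, but 24.7% (18.3 to 32.1) and 19.2% (16.8 to 21.9) in knockout-labelled cells, where the intervals overlapped. For Nnat the intervals overlapped in both libraries. These pairs were picked after looking at the cells, and cells of 1 library are not replicates.

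Other genes varied in their own ways. Hes1 had a variance 3.29 times its mean over control cells and 2.28 times over knockout-labelled cells (Fano factor, thinned), whereas Tshz2 had 1.37 and 1.38, so Hes1 was less even than Tshz2. Gfod2 was found in 7.38% and 7.00% of thinned cells, yet its Fano factors were 3.80 and 5.93, and the highest 1% of cells held 44.0% and 46.8% of its thinned UMIs. Across cells, the nuclear RNAs Meg3 and Malat1 had Pearson r = 0.66 over 1558 control and 0.65 over 1129 knockout-labelled cells. These cells share their library and a fixed depth, and the values are descriptions.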

How the data were processed

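The authors deposited 1 matrix of raw UMI counts for each library, 1 control and 1 knockout-titled. Cell Ranger, GRCm38 (mm10) and Seurat 2 and 3 are named, without roles, in the submitters' processing notes, and the Cell Ranger version, the aligner and the annotation were not given in the sources used here. One further table that the authors deposited was not used. Members and gene lists were chosen with earlier results of these data known. Counts were summed over member cells per library and scaled to CPM. Genes were called past 1.5-fold on log2 (CPM + 5) where a library reached 50 CPM and both together 20 UMIs. The 37 lists used genes with at least 20 UMIs. Cells were thinned without replacement to 3000 UMIs for shares (22 and 21 shallower members left out). Doublets were not removed in the main values. Removing the highest Scrublet scores (0.8% per 1000 barcodes, scanpy 1.11.5) is an alternative that took 32 and 16 members. Only the recovery of fold differences and their counting intervals was tested on simulated data, drawn as Poisson counts. Gates, lists, shares of cells and doublet removal were not tested in that way. Alternatives were other scalings (TMM in edgeR 4.0.16, median of ratios), pseudocounts, filters, thinning and gates.

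Named genes are the 12 highest and 12 lowest ratios, the 6 highest and 6 lowest by the ratio minus the mean ratio of the other 3 mesenchymal parts, and the 10 highest and 6 lowest over the other gated mesenchyme. Mitochondrial, ribosomal, haemoglobin, sex-linked and rule genes and unnamed gene models were not ranked. List members, given markers and the genes left out served as examples, and promoters were chosen after their values were seen. Coordinates are GENCODE M21 (GRCm38), promoters RefSeq. Whether counting used strand is not given, so overlapping genes are uncertain.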

Additional observations from a re-analysis of the deposited data

Results flagged for a closer look

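Id2 had ratios on opposite sides of 1 in the remaining non-mitotic and the Lum-high mesenchyme. The knockout-labelled over control ratio was 0.683 (0.628 to 0.743) in the population and 1.55 (1.36 to 1.77) in the Lum-high cells, each from 1 library per group. The difference was not tested.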

How the results depend on the processing

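No paired analysis was possible because each group has 1 library and no test was run. The count of 18 genes higher of 2596 was 41 of 3857 with haemoglobin, mitochondrial and ribosomal genes left out of the total, 9 of 2596 with a pseudocount of 20, 33 of 2698 with a collagen sum of at least 10, 61 of 11895 with no minimum CPM and 8 of 1366 with a minimum of 100 CPM. The count of 36 genes lower was 56, 151 and 18 of the same totals with those genes left out, no minimum and 100 CPM. The ratio of shares, 0.927, was 1.007 with Lum at 0, 0.876 with Lum under 6 and 1.008 with no Isl1 gate. The erythroid median was 0.49 with depth-matched gates, 1.05 and 0.47 with a mitotic sum under 3 and under 15, 1.15 with a collagen sum of at least 10 and 1.11 without neural, immune and erythroid cells. The immune median was 0.048 with a collagen sum of at least 10. The cause of these shifts was not tested. Over 18 settings and 75 genes, 1189 of 1350 log2 ratios stayed within the counting interval, 161 moved outside it and 0 called ones turned. The log2 ratios of other genes, among them Fgfr2, Figf, Matn2, Ier3, Creb5 and Hoxb2, were not followed. Over 20 settings and 37 lists, 679 of 740 list medians stayed close to the main value, 55 moved away and 6 (erythroid and immune, above) turned. Leaving out a replicate would leave an empty group. With 1 embryo per group, differences between embryos cannot be told from differences between genotypes, and counts limit genes under about 20 UMIs.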
